A study of Rattus with 6 samples.

Results

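Genes of calcium cycling across the sarcoplasmic reticulum were examined in ventricular cardiomyocytes of rats exposed to hypergravity and of control rats. The set was defined by a fixed list of 4 Ensembl identifiers with their symbols: Cacna1c (ENSRNOG00000007090), Ryr2 (ENSRNOG00000017060), Atp2a2 (ENSRNOG00000001285) and Pln (ENSRNOG00000000413). The identifiers of Cacna1c, Ryr2 and Atp2a2 were matched to rows of the count files used here, 3 of 23092 genes, and all 3 passed the filter on low counts. No row was matched to the identifier of Pln, the gene of phospholamban, which restrains the calcium pump of the reticulum, and Pln was therefore not analysed here. The files hold identifiers without symbols, and the gene table at hand carries no Ensembl identifiers, so each symbol was used as listed.

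Poly(A) RNA from isolated ventricular cardiomyocytes was sequenced in 6 libraries, 3 from the hypergravity group and 3 from the control group. All were from wild-type male Wistar rats aged 8 weeks. The hypergravity group was exposed to 4 g for 14 days, with 8 h of exposure per day, and the control group was not exposed to hypergravity. The labels do not say whether the libraries of a group came from separate animals, so the p-values measure the spread between these libraries, which may be technical.

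In a ventricular cardiomyocyte, the action potential opens L-type calcium channels in the surface membrane, and the calcium that enters opens ryanodine receptors in the sarcoplasmic reticulum. The larger release that follows drives contraction. Relaxation begins as the calcium pump of the reticulum returns calcium to the store. Cacna1c encodes the pore-forming subunit of the L-type channel (entry), Ryr2 the cardiac ryanodine receptor (release) and Atp2a2 the pump SERCA2 (uptake). The files give 1 count per gene, so splice forms of these genes were not separated.

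Between 24440690 and 45497422 reads were counted on genes per library. The 10 most abundant genes took from 52.5 to 73.4% of these counts, and none of the genes analysed was among them. Levels are therefore given as CPM, counts relative to the size of the library, after TMM scaling, which sets the typical gene at the same level in each library. The first principal component of the normalized levels (46.8% of the variance) did not separate the groups, with hypergravity libraries 1 and 2 and control library 2 above 0 and the other 3 libraries below it. On the second component (24.8%), the 3 hypergravity libraries were above 0 and the 3 control libraries below it. Alignments outside annotated exons made up 2.85 to 3.20% of all listed counts in the control libraries and 4.07 to 4.40% in the hypergravity libraries. Marker genes of cardiomyocytes and of other cell types were not analysed here. In bulk RNA, fewer cells of a type and less RNA per cell cannot be told apart. Gene lengths were not used either, so levels are compared between libraries and not between genes.

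Cacna1c, the calcium entry channel, had a level in every hypergravity library above that of every control library. Its counts were 4500, 8320 and 2357 in hypergravity libraries 1, 2 and 3, and 1196, 1432 and 2682 in control libraries 1, 2 and 3. After TMM scaling, its level was 101.4, 120.2 and 119.8 CPM in the hypergravity libraries and 58.8, 62.8 and 68.9 CPM in the control libraries. The groups did not overlap, and the gap between the lowest hypergravity and the highest control library was wider than the range within either group. The mean level was 113.8 ± 10.8 CPM (SD, n = 3) with hypergravity against 63.5 ± 5.10 CPM (SD, n = 3) without it. The log2 fold change was 0.84 (standard error 0.159, 95% interval 0.48 to 1.21), or 1.79-fold, in edgeR's quasi-likelihood test. The unadjusted p was 0.000671, and the Benjamini-Hochberg adjusted p over the 11905 genes tested was 0.169 with edgeR, so Cacna1c did not pass the threshold of 0.05. With DESeq2 it did, at a log2 fold change of 0.85 and an adjusted p of 1.68e-05. Over the 15 alternatives to the edgeR fit, the log2 fold change ran from 0.79 to 1.16 and the adjusted p from 1.68e-05 to 0.511, and DESeq2 was the only alternative that called the gene. With no scaling beyond library size the median of all genes moved from -0.02 to 0.32 on the log2 scale, and Cacna1c stood at 1.16.

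Cacna1c varied little within the groups. Its within-group standard deviation was 0.128 on the log2 scale, against a median of 0.272 over all genes tested, and 9.02% of the genes had a smaller value. Only 4.66% of the genes were more abundant than Cacna1c, and the comparison was not matched for abundance. A higher log2 fold change was measured for 3.26% of the genes tested, and a smaller p for 0.344%. The share of alignments outside exons was also higher in the hypergravity libraries, without overlap, and its part in the Cacna1c difference was not tested. In hypergravity libraries 1, 2 and 3, in that order, this share was 4.13, 4.40 and 4.07%. In the RefSeq annotation of the assembly GRCr8, Cacna1c overlaps the protein-coding gene Dcp1b and 3 long non-coding RNA genes. The library kit marks strand, but whether the counting used it is not given in the sources used here, so reads from overlapping genes may not have been told apart.

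Ryr2, the calcium release channel, had overlapping levels in the groups. Its counts were 35538, 71850 and 12313 in hypergravity libraries 1, 2 and 3, and 12509, 13264 and 29872 in control libraries 1, 2 and 3. The TMM-scaled levels were 800.8, 1038 and 626.0 CPM in the hypergravity libraries and 615.2, 581.3 and 767.7 CPM in the control libraries. Hypergravity library 2 was the highest of the 6, and hypergravity library 3 lay between control libraries 1 and 3. Of the 9 pairs of a hypergravity and a control library, 8 had the higher level in the hypergravity library. The exposed libraries averaged 821.7 ± 207.0 CPM (SD, n = 3) and the control libraries 654.8 ± 99.3 CPM (SD, n = 3). The log2 fold change of 0.33 (standard error 0.238, 95% interval -0.22 to 0.87) was within the spread between libraries (edgeR, adjusted p = 0.571). The interval spans from a 0.859-fold to a 1.83-fold level. Without hypergravity library 2 the log2 fold change was 0.13, and without hypergravity library 3 it was 0.49 (edgeR, adjusted p = 0.895 and 0.315, respectively). With no scaling beyond library size it was 0.70 (edgeR, adjusted p = 0.662), where the median of all genes was 0.32. In the RefSeq annotation of GRCr8, Ryr2 overlaps a pseudogene and a long non-coding RNA gene.

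Atp2a2, the calcium pump, averaged 4141 ± 1042 CPM (SD, n = 3) in the exposed libraries against 4173 ± 402.2 CPM (SD, n = 3) in the control libraries, a difference far smaller than the spread. Its counts were 206798, 333549 and 57857 in hypergravity libraries 1, 2 and 3, and 75406, 100179 and 171923 in control libraries 1, 2 and 3. The TMM-scaled levels were 4660, 4821 and 2942 CPM in the hypergravity libraries and 3708, 4391 and 4419 CPM in the control libraries. Hypergravity libraries 1 and 2 were the highest of the 6 and hypergravity library 3 the lowest, so the exposed group enclosed the whole control range. The log2 fold change was -0.01 (standard error 0.253, 95% interval -0.59 to 0.57; edgeR, adjusted p = 0.989). These libraries therefore leave room for a level from 0.663-fold to 1.49-fold that of the control group. Without hypergravity library 3 the log2 fold change was 0.18 (edgeR, adjusted p = 0.679), and without control library 2 or 3 it was 0.04 and 0.03, respectively, so its sign depended on single libraries. With no scaling beyond library size it was 0.38 (edgeR, adjusted p = 0.764), where the median of all genes was 0.32. The table of RefSeq genes lists no gene that overlaps Atp2a2 in GRCr8.

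**Figure D1:**
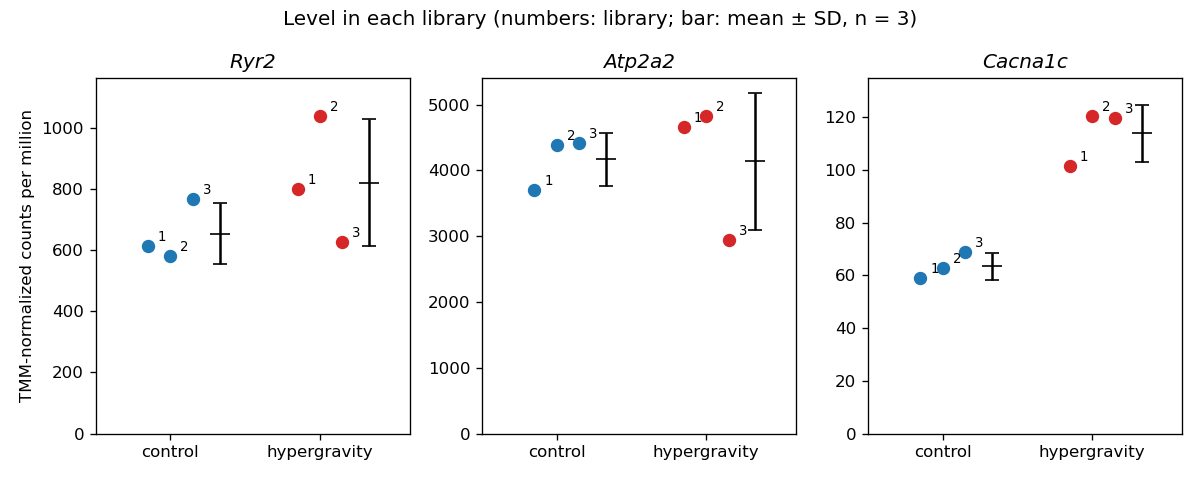
TMM-normalized CPM (vertical axes, from 0) of Ryr2, Atp2a2 and Cacna1c in each of the 3 control and 3 hypergravity libraries, with numbers for the libraries and bars for the mean ± SD. The hypergravity libraries (101.4 to 120.2 CPM) lie above the control libraries (58.8 to 68.9 CPM) for Cacna1c, while the groups overlap for Ryr2 and Atp2a2.

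Among all 11905 genes tested, 4 (0.0336%) had an adjusted p under 0.05 with edgeR, and 0 of the 3 genes of the set were among them. At an unadjusted p under 0.05, Cacna1c was the only gene of the set, against 13.6% of all genes in either direction and 7.35% in the higher direction. Complete separation, with the exposed libraries above all control libraries, was found for Cacna1c alone in the set, and for 11.3% of all genes. With DESeq2, 1 of the 3 genes was called, against 3.04% of the 10741 genes that had an adjusted p. The median log2 fold change was 0.33 over the 3 genes, that of Ryr2, and -0.02 over all genes tested. With 3 genes, such counts describe these genes and do not set the group apart from other genes.

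**Figure D2:**
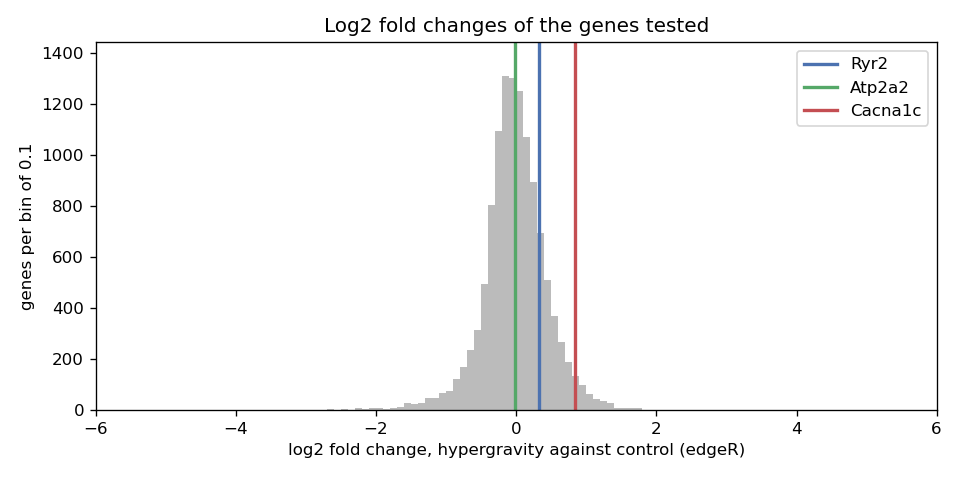
Number of genes (vertical axis) per bin of 0.1 in log2 fold change, hypergravity against control (horizontal axis), over the 11905 genes tested with edgeR, with vertical lines at the values of Atp2a2 (-0.01), Ryr2 (0.33) and Cacna1c (0.84). Atp2a2 lies near the middle of the distribution, and 3.26% of the genes lie to the right of Cacna1c.

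**Figure D3:**
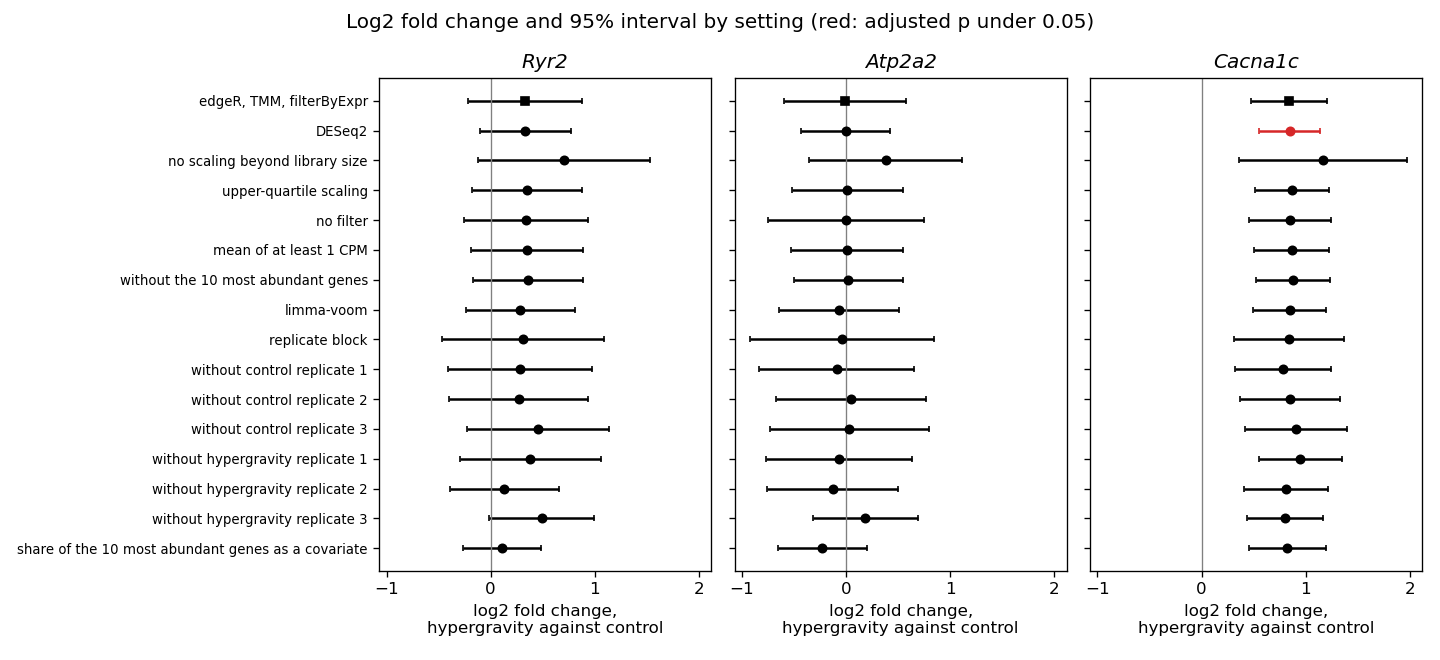
Log2 fold change of each gene, hypergravity against control (horizontal axes), with its 95% interval under each setting of the analysis (rows), with red for an adjusted p under 0.05. The intervals of Ryr2 and Atp2a2 include 0 in each row, and those of Cacna1c lie above 0 in each row, with an adjusted p under 0.05 in the DESeq2 row only.

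Ratios of counts within a library do not depend on the scaling between libraries, and they set entry, release and uptake against each other. On the log2 scale, each of the 3 ratios follows from the other 2, and both ratios with Cacna1c share its counts. The 3 ratios are therefore not independent results. How often ratios of other genes separate the groups was not computed. Cacna1c relative to Atp2a2 stood at 2.18, 2.49 and 4.07 counts per 100 counts in hypergravity libraries 1, 2 and 3. In control libraries 1, 2 and 3 it stood at 1.59, 1.43 and 1.56. All hypergravity libraries were above all control libraries, and hypergravity library 3, where Atp2a2 was lowest, gave the highest ratio. The means were 2.91 ± 1.02 (SD, n = 3) and 1.53 ± 0.0839 (SD, n = 3) counts per 100, a difference of 0.88 on the log2 scale or 1.84-fold. The two-sided exact permutation test gave p = 0.1 (0.15 after Benjamini-Hochberg adjustment over 3 ratios), and 0.1 is the smallest value that 3 libraries against 3 allow. Without hypergravity library 3 the difference was 0.61 on the log2 scale.

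Cacna1c relative to Ryr2, the entry channel against the release channel, stood at 12.7, 11.6 and 19.1 counts per 100 in hypergravity libraries 1, 2 and 3. The control libraries gave 9.56, 10.8 and 8.98. The groups did not overlap, but hypergravity library 2 and control library 2 lay close together. The difference was 0.53 on the log2 scale, or 1.45-fold (exact permutation test, two-sided p = 0.1, adjusted p = 0.15), and 0.31 without hypergravity library 3.

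Ryr2 relative to Atp2a2, release against uptake, stood at 17.2, 21.5 and 21.3 counts per 100 in hypergravity libraries 1, 2 and 3. In the control libraries it was 16.6, 13.2 and 17.4. Hypergravity library 1 lay below control library 3, so the groups overlapped, with 8 of the 9 pairs higher in the hypergravity library. The means were 20.0 ± 2.44 (SD, n = 3) and 15.7 ± 2.20 (SD, n = 3), a log2 difference of 0.35 (exact permutation test, two-sided p = 0.2, adjusted p = 0.2), and 0.23 without control library 2. Hypergravity library 3 gave a ratio near that of library 2, although both genes were lower in it.

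**Figure D4:**
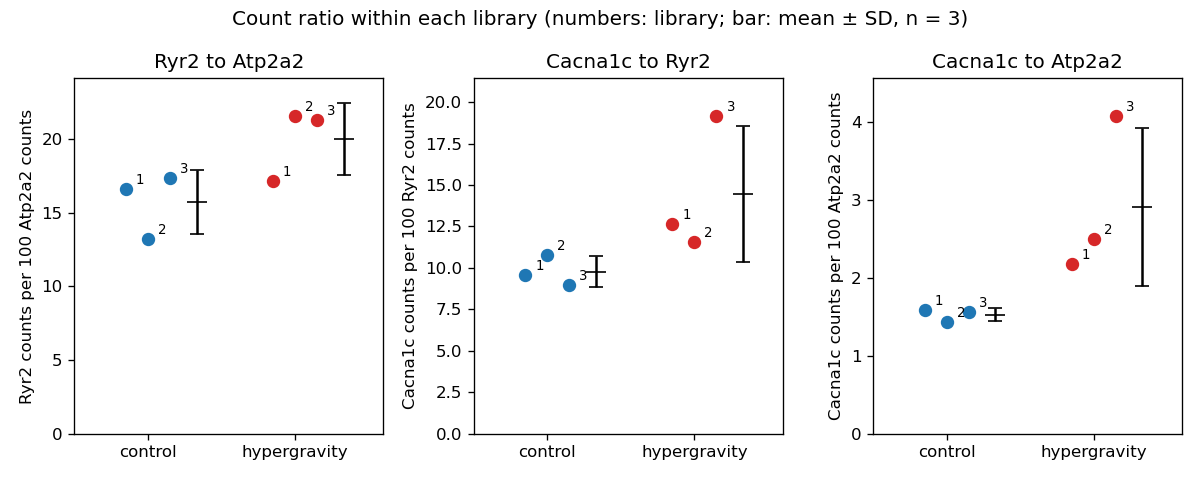
Counts of the gene named first per 100 counts of the other gene (vertical axes, from 0) in each of the 3 control and 3 hypergravity libraries, with the mean ± SD beside the points. For both ratios with Cacna1c the hypergravity points lie above all control points, and hypergravity library 3 is the highest (19.1 per 100 counts of Ryr2 and 4.07 per 100 counts of Atp2a2).

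Together the 3 genes took from 0.297 to 0.909% of the gene counts in the hypergravity libraries and from 0.354 to 0.607% in the control libraries. The means were 0.611 ± 0.307% (SD, n = 3) and 0.450 ± 0.137% (SD, n = 3), which differed by less than the spread between libraries (two-sided exact permutation test, p = 0.6). Without hypergravity library 2 the means differed by 0.0123 percentage points. Most of this share was Atp2a2, at 0.733% in hypergravity library 2 (95% Wilson interval 0.731 to 0.736%) and 0.237% in hypergravity library 3 (0.235 to 0.239%). The Wilson interval of a share extended at most 5.67% of its value to either side for Cacna1c, 1.77% for Ryr2 and 0.814% for Atp2a2. These intervals cover counting error only. The coefficient of variation of the TMM-scaled Cacna1c level between libraries was 9.46% with hypergravity and 8.03% in the control group. Relative to the gene counts without the 10 most abundant genes, the summed share was 1.52 ± 0.400% (SD, n = 3) in the exposed and 1.38 ± 0.135% (SD, n = 3) in the control libraries (exact permutation test, two-sided p = 0.6).

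Levels were also set against the share of counts in the 10 most abundant genes. The comparison was chosen after the values were seen. This share was 59.2, 52.5 and 73.4% in hypergravity libraries 1, 2 and 3 and 72.7, 70.2 and 60.5% in control libraries 1, 2 and 3. The TMM-scaled level of Atp2a2 ran in the exact reverse order over the 6 libraries, from 4821 CPM in hypergravity library 2 down to 2942 CPM in hypergravity library 3. The same full reversal was found for 71 of the 11905 genes tested (0.596%). For Ryr2, the 3 libraries with the lowest share (hypergravity libraries 2 and 1 and control library 3) had the 3 highest levels. Among the other libraries Ryr2 rose with the share, at 581.3, 615.2 and 626.0 CPM in control libraries 2 and 1 and hypergravity library 3. How many of all genes split this way was not computed. For Cacna1c, the 3 control libraries ran in the reverse order of the share (68.9, 62.8 and 58.8 CPM in control libraries 3, 2 and 1), and the hypergravity libraries did not, with 120.2, 101.4 and 119.8 CPM in libraries 2, 1 and 3. With this share as a covariate in the edgeR fit, the log2 fold change was 0.83 for Cacna1c (adjusted p = 0.163), 0.11 for Ryr2 (adjusted p = 0.779) and -0.23 for Atp2a2 (adjusted p = 0.592). The Ryr2 and Atp2a2 values moved by 0.22 on the log2 scale, and that of Cacna1c by 0.016. This fit left 3 residual degrees of freedom, and no control library had a share below 60.5%.

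**Figure D5:**
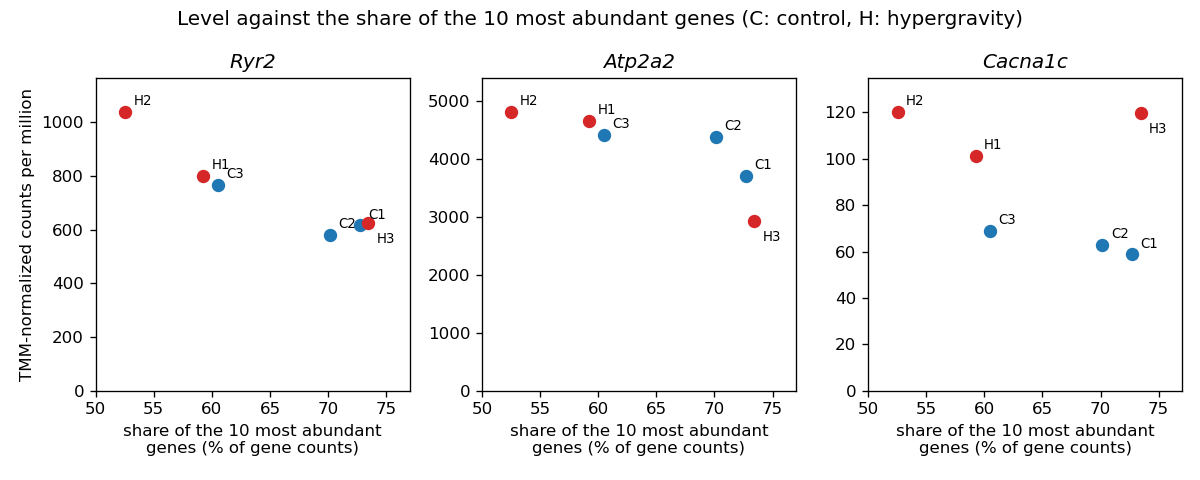
TMM-normalized CPM of each gene (vertical axes, from 0) against the share of gene counts in the 10 most abundant genes (horizontal axes, in percent), with C for control and H for hypergravity libraries. Atp2a2 declines without exception from 4821 CPM at 52.5% to 2942 CPM at 73.4%, whereas the 3 hypergravity libraries lie above the 3 control libraries for Cacna1c. No control library lies below 60.5%, and no hypergravity library lies between 59.2 and 73.4%.

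The genes whose levels ran most like those of each gene were sought over the 6 libraries by Pearson's correlation of log2 CPM, as a description with no test, since the points share library and scaling. A correlation above 0.9 with Cacna1c was found for 418 of the other genes tested (3.51%), with Atp2a2 for 325 (2.73%) and with Ryr2 for 214 (1.80%). The gene most like Ryr2 was ENSRNOG00000001455 (r = 0.997, n = 6 libraries), at 41.7, 58.5 and 32.0 CPM in hypergravity libraries 1, 2 and 3 and 30.4, 27.9 and 38.8 CPM in the control libraries. It shared the high level in hypergravity library 2 and the overlap between the groups. The gene most like Cacna1c was ENSRNOG00000008307 (r = 0.996, n = 6 libraries), at 1.64, 2.15 and 2.00 CPM in the hypergravity libraries and 0.948, 0.978 and 1.09 CPM in the control libraries. Its groups did not overlap, at a log2 fold change of 0.94 (edgeR, adjusted p = 0.229). Among all genes tested, 11.3% had every hypergravity library above every control library. Both genes were picked for their likeness over these same libraries, so the traits they share follow from the choice and are no separate observation. The files give no symbols for these identifiers.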

How the data were processed

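The authors deposited raw counts of reads per Ensembl gene, without normalization, for each library. The submitters' processing notes name FastQC, Trimmomatic, HISAT2, HTSeq and the build mRatBN7.2, and the labels name a stranded mRNA kit. Tool versions, annotation release and the strand setting of the counting are not given in the sources used here. The 5 summary categories (8.55 to 9.92% of all listed counts, with those on genes) were left out of library sizes and tests. The publication linked to the series describes another exposure, and nothing but style was taken from it.

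Groups and library numbers came from the sample titles. All genes were fitted with edgeR 4.0.16 in R 4.3.3 (TMM, filterByExpr, quasi-likelihood test, Benjamini-Hochberg adjustment over 11905 genes, threshold 0.05). Standard errors are the log2 fold change over the square root of F, with 95% intervals from the t distribution. No library was a copy of another (chi-square per degree of freedom from 24.0 to 282.6 over the pairs). Alternatives used DESeq2 1.42.0 and limma 3.58.1. Exact permutation tests used scipy 1.17.1. The fits were tested on simulated data.

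The genes and lists were chosen with earlier results of these data known. Named were the genes of the set and, for each, the gene most correlated with it, at most 2 printed (those with the highest correlation). Lists of calcium handling partners and of cell type markers were fixed by symbol, and the RefSeq table (GRCr8) matched 0 Ensembl identifiers, so they were not analysed here; nor were ratios with Pln. Sequences were not used here.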

Additional observations from a re-analysis of the deposited data

How the results depend on the processing

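In all 15 alternatives Ryr2 stayed above 0 (log2 fold change 0.11 to 0.70) and was called in none (adjusted p from 0.315 to 0.895). Cacna1c kept its direction in all 15, with an unadjusted p under 0.05 in each, and was called with DESeq2 alone (log2 fold change 0.85), where 1 gene of the set was called against 0 in the other 14. Atp2a2, at -0.01, changed sign in 8 of 15: 0.38 with no scaling beyond library size (a setting that moved the median of all genes to 0.32), 0.011 with upper-quartile scaling, 0.0022 without filtering, 0.010 with genes kept at a mean of 1 CPM or more, 0.023 without the 10 most abundant genes, and above 0 in 3 of the 6 fits with a library left out (control library 2, control library 3 or hypergravity library 3). Those 6 fits ran from -0.13 to 0.18. Leaving out a library gave 0.13 to 0.49 for Ryr2 and 0.79 to 0.95 for Cacna1c. Over all genes, 4 were called with edgeR, 326 with DESeq2, 1 with no scaling, 2 with upper-quartile scaling, 15 with no filter (16981 tested), 0 without the 10 most abundant genes, 0 with the covariate and 0 to 1 with each library left out; the cause was not tested. At an unadjusted p under 0.05, the fits that called 0 genes had from 978 to 1994. The covariate was added after the data were seen.

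With a replicate block, the log2 fold change was 0.31 for Ryr2, -0.04 for Atp2a2 and 0.84 for Cacna1c, and 0 genes were called. The correlations of same-numbered libraries' deviations were -0.473, -0.107 and 0.227, and shared numbers were not read as pairs. The 3 count ratios and the summed share kept their direction in all 7 alternatives each. With each library left out, the log2 difference ran from 0.61 to 1.07 for Cacna1c to Atp2a2, 0.31 to 0.68 for Cacna1c to Ryr2 and 0.23 to 0.45 for Ryr2 to Atp2a2, and the summed share differed by 0.0123 to 0.319 percentage points, least without hypergravity library 2. Planned results with Pln were not run. Depth limits Cacna1c most, with a 95% counting interval of up to 5.67% of its share to either side.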
